A study of Mus musculus with 8 samples.

Results

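The genes described here are the light chains of muscle myosin and the kinases of the myosin light chain kinase family found in striated muscle. They are 9 named genes: the essential light chains Myl1, Myl3, Myl4 and Myl6b, the regulatory light chains Mylpf and Myl2, and the kinases Mylk2, Mylk3 and Mylk4. Each was found on the array by its gene symbol, each had 1 probe set, and they make up 9 of 19938 genes that a probe set named alone. They lie on 9 different chromosomes.

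RNA came from the cerebellum and TA muscle, read here as tibialis anterior, a mostly fast muscle of the lower leg, of mice aged 3 months that were either wild type (WT) or spinocerebellar ataxia 17 knock-in (KI). Spinocerebellar ataxia 17 is caused by an expanded polyglutamine tract in the TATA-box-binding protein. The sources used here do not give the length of the tract, the number of altered copies, the sex or the strain. The labels speak of 3 mice per genotype, while each group analysed here has 2 arrays, KI replicates 94 and 97 and WT replicates 95 and 96 in both tissues. Nothing says that the arrays came from separate animals, so p-values measure only the spread between these arrays, and their number limits the precision. In bulk tissue, fewer cells of a type and less RNA per cell cannot be told apart.

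Values were log2 expression levels made by robust multi-array averaging (RMA), so a difference of 1 is a 2-fold change. The arrays were close to each other over all probe sets: r was 0.982 between the KI muscle arrays and 0.977 between the WT muscle arrays, and the highest r of a KI with a WT muscle array was also 0.982. The 5 muscle fibre markers Acta1, Ckm, Myh4, Ttn and Des averaged 11.76 and 11.78 on the KI muscle arrays, 11.91 and 12.004 on the WT muscle arrays and at most 5.47 in the cerebellum, as the tissue labels say. Genes that reached the 40th percentile of the array on 2 or more of the 4 arrays of a tissue were tested there, and a gene was called at an adjusted p under 0.05 in limma, a linear model with moderated variances, with Benjamini-Hochberg adjustment over all genes tested.

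Each head of a muscle myosin carries 1 essential and 1 regulatory light chain, wrapped around the lever arm that swings during the power stroke. Fast fibres use Myl1 and Mylpf. Slow fibres and the heart ventricle use Myl3 and Myl2, and Myl4 belongs to the atrium and to embryonic muscle. A calcium- and calmodulin-dependent kinase phosphorylates the regulatory chain, which raises the force of a twitch without itself being needed for contraction. Mylk2 is that kinase in skeletal muscle and Mylk3 the one of the heart, while Mylk4 is a less studied relative.

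The stretches of DNA around the transcription starts of Myl3, Myl4 and Mylk4, which fell, are shown first. That of Myl1, whose groups overlapped, is given for comparison. Mylk2, the other gene that fell, has no such window and is not shown. RefSeq (build GRCm38.p6) gives windows from 250 bases before to 50 bases after the start for 8 of the 9 genes. They are read 5′ to 3′ on the strand of the gene. Capitals mark every match, on either strand, to the E-box (CANNTG), the MCAT element (CATTCC), the MEF2 box or the CArG box, which are binding motifs of myogenic factors, TEAD factors, MEF2 and serum response factor.
Myl3: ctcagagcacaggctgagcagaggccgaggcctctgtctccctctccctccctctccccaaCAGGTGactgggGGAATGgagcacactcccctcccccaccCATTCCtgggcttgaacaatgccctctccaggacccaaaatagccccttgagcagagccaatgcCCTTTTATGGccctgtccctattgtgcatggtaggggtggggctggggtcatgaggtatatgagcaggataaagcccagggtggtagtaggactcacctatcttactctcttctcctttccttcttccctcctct
Myl4: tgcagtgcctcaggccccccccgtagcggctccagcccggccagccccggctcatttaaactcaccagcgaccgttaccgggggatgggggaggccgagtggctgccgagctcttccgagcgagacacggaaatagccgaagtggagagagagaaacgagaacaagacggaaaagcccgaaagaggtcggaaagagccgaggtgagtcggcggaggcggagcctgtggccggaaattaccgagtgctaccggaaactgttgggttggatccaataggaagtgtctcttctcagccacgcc
Mylk4: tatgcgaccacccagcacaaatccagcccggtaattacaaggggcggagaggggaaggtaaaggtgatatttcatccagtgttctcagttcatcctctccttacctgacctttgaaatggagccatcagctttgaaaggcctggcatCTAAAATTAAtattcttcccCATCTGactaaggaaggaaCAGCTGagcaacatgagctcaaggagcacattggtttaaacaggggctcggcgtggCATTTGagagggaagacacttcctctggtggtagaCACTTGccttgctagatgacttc
Myl1: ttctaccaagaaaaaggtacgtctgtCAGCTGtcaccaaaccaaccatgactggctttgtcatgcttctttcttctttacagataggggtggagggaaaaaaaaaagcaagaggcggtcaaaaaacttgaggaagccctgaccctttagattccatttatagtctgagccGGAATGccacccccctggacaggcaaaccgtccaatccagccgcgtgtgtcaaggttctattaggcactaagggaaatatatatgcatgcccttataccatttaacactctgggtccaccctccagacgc
The Myl3 window (chr9:110763428-110763727, plus strand) held 1 E-box, 2 MCAT elements and 1 CArG box, the last from 85 to 76 bases before the start. The Mylk4 window (chr13:32783915-32784214, minus strand) held 4 E-boxes and 1 MEF2 box, and no match overlapped another. The Myl4 window (chr11:104550413-104550712, plus strand) held none of these letters, and the Myl1 window (chr1:66945007-66945306, minus strand) held 1 E-box and 1 MCAT element. Of 32841 such windows of all genes, 72.3% held an E-box, 14.7% an MCAT element, 3.19% a MEF2 box and 1.63% a CArG box. No motif was found in all 3 windows of the genes that fell, and a match is only a match of letters.

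In muscle the question was how KI and WT mice differ in these genes. Of the 9 genes, 4 fell in KI muscle (Myl3, Myl4, Mylk2 and Mylk4) and 0 rose, and all 9 differences were negative, with a median log2 difference of -0.62. Over all 13933 genes tested, 3.55% were called, 0.89% as lower, 20.3% had an unadjusted p under 0.05, and the median difference was 0.03. In 7 of the 9 genes both KI arrays lay below both WT arrays, as they did in 19.9% of all tested genes, while 30.3% had both KI arrays above and 50.2% no overlap either way. The exceptions were Myl1 and Myl6b, whose KI and WT arrays overlapped. The 4 calls were among 30 genes called at least 2-fold lower, which is 0.215% of those tested. The 9 genes were chosen with earlier results of these data known, so these shares are no test of the set.

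**Figure D1:**
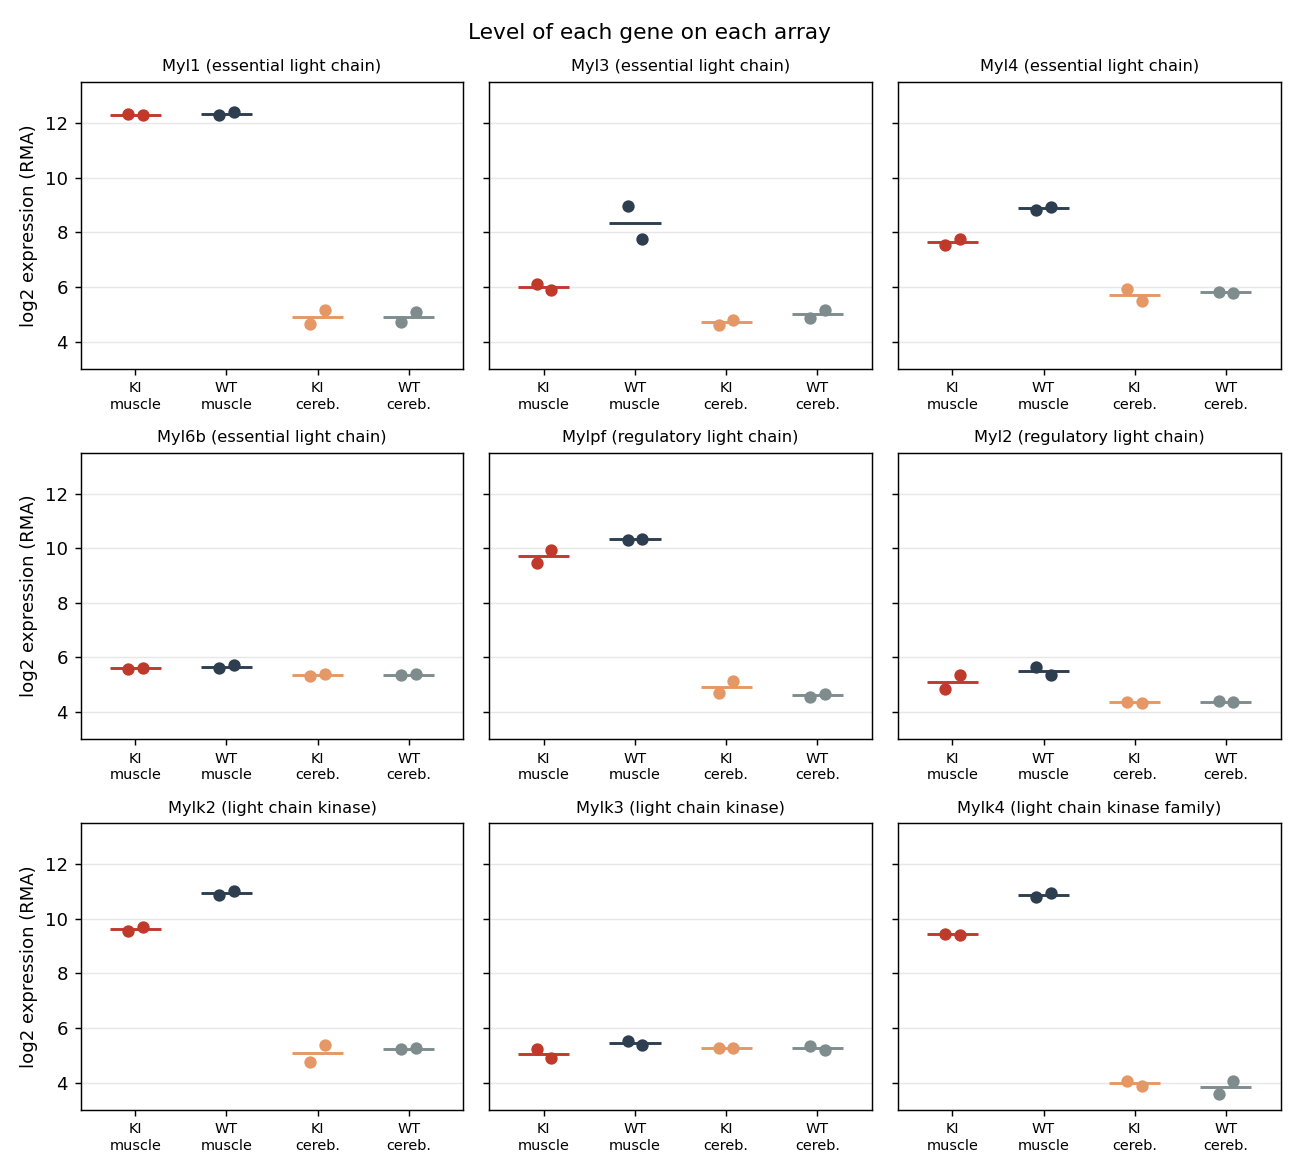
Log2 expression of each gene on each of the 8 arrays, by group, with points for arrays and a line at the mean of 2 arrays. In muscle the KI points lie apart from and below the WT points for Myl3, Myl4, Mylk2 and Mylk4, those of Myl1 coincide at 12.29 to 12.42, and Myl6b and Mylk3 have much the same level in both tissues.

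Among the essential light chains, Myl3 (probe set 10589602, chromosome 9), the slow and ventricular chain, differed most. Its log2 level was 6.11 and 5.90 on the KI muscle arrays 94 and 97, and 8.95 and 7.77 on the WT muscle arrays 95 and 96. All KI values were below all WT values, with a gap of 1.66, but the WT arrays were themselves 1.18 apart while the KI arrays were 0.21 apart. The difference was -2.35 ± 0.30 (SE), a 5.11-fold lower level with a 95% interval of 3.18-fold to 8.22-fold (limma adjusted p = 0.00638). It was the second largest of the 124 falls called in muscle. The SE and interval use a spread pooled over the muscle and cerebellum groups, so that of WT muscle counts only in part. The SD was 0.84 in WT muscle, 0.15 in KI muscle, 0.12 in KI cerebellum and 0.19 in WT cerebellum. Without WT replicate 95 the difference was -1.76 and without WT replicate 96 it was -2.95. Each of these fits leaves 1 WT muscle array, so the 1.18 between the WT arrays drops out of the error. Whether the call holds against that spread cannot be read from them.

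Myl4 (probe set 10381798, chromosome 11), the atrial and embryonic essential chain, was at 7.54 and 7.77 in KI muscle and at 8.81 and 8.95 in WT muscle. The groups were 1.04 apart and the arrays within a group 0.23 or less. The difference was -1.22 ± 0.16 (SE), or 2.33-fold (95% interval 1.82 to 2.99; limma adjusted p = 0.00638). Both genotypes thus had more Myl4 RNA in this adult limb muscle than in the cerebellum, where its 4 arrays lay from 5.48 to 5.94.

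Myl1 (probe set 10355259, chromosome 1), the source of both fast essential chains, did not pass the test. It was at 12.32 and 12.31 in KI and at 12.29 and 12.42 in WT muscle, a difference of -0.04 ± 0.17 (SE; limma adjusted p = 0.933). The 95% interval allows a level from 1.35-fold lower to 1.28-fold higher in KI. These levels are near the top of the array, at the 99.8th percentile of all 4 muscle arrays. Of the 13 tested genes with a mean of at least 12 in muscle, 0 were called in either direction, with a median size of difference of 0.07. Only 3.55% of all tested genes were called, so 0 of 13 is no result about bright genes. Whether the array can show a change at that brightness was not tested. Myl6b (probe set 10373400, chromosome 10), a chain of slow fibres and of non-muscle cells, was at 5.58 and 5.63 in KI and at 5.61 and 5.72 in WT muscle. Its difference was -0.06 ± 0.10 (SE; 95% interval -0.30 to 0.17; limma adjusted p = 0.779), at a level little above the array medians of 5.40 to 5.47 in muscle.

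The regulatory light chains had smaller negative differences that did not pass. Mylpf (probe set 10557575, chromosome 7), the fast chain that Mylk2 phosphorylates, was at 9.47 and 9.96 in KI muscle and at 10.31 and 10.35 in WT muscle. The KI arrays were both lower but 0.48 apart from each other, more than their gap of 0.36 to the WT arrays. The difference was -0.62 ± 0.18 (SE; 95% interval -1.02 to -0.21; unadjusted p = 0.00711, limma adjusted p = 0.0998), and it was -0.37 without KI replicate 94 and -0.86 without KI replicate 97. Myl2 (probe set 10525343, chromosome 5), the slow and ventricular regulatory chain, was at 4.85 and 5.36 in KI and at 5.66 and 5.37 in WT muscle. A gap of only 0.01 separated KI replicate 97 from WT replicate 96. The difference was -0.41 ± 0.17 (SE; limma adjusted p = 0.210), and KI replicate 94 was below the 40th percentile of its array.

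Myl2 and Myl3 are partners on slow myosin, and their differences can be set side by side. The 95% interval was -0.79 to -0.04 for Myl2 and -3.04 to -1.67 for Myl3, and the intervals do not overlap. Both intervals use the pooled spread, and the WT muscle arrays of Myl3 were 1.18 apart. The difference between the changes of these genes was not tested, and Myl2 was close to the array median.

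**Figure D2:**
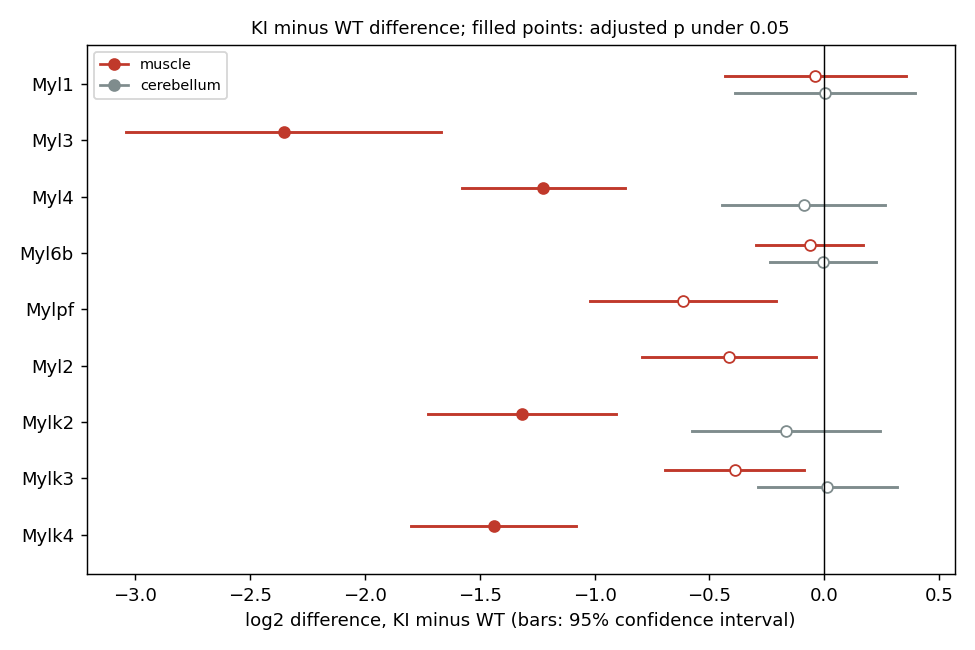
Log2 difference between KI and WT for each gene, with its 95% confidence interval from limma, in muscle and, for the 5 genes tested there, in the cerebellum. The muscle intervals of Myl3, Myl4, Mylk2 and Mylk4 end at -0.87 or lower, and all 5 cerebellum intervals include 0.

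Of the kinases, Mylk2 and Mylk4 fell and Mylk3 did not pass. Mylk2 (probe set 10477206, chromosome 2) was at 9.54 and 9.70 in KI muscle and at 10.86 and 11.02 in WT muscle. The arrays within each genotype were at most 0.16 apart and the genotypes were 1.16 apart. KI muscle had 40.2% of the WT level, a difference of -1.32 ± 0.18 (SE; 2.49-fold lower, 95% interval 1.88 to 3.31; limma adjusted p = 0.0085). Without WT replicate 96 the difference was -1.24 and its limma adjusted p 0.0502, just past the threshold.

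Mylk4 (probe set 10408543, chromosome 13) was at 9.46 and 9.41 in KI muscle and at 10.80 and 10.95 in WT muscle. This was the widest gap between genotypes after Myl3, 1.34, with the KI arrays 0.05 apart. KI muscle had 36.9% of the WT level, a difference of -1.44 ± 0.16 (SE; 95% interval -1.80 to -1.08; limma adjusted p = 0.00369). With 1 array left out at a time it ranged from -1.52 to -1.36. Mylk3 (probe set 10580349, chromosome 8), the cardiac kinase, was at 5.23 and 4.89 in KI and at 5.51 and 5.39 in WT muscle. Its difference of -0.39 ± 0.13 (SE; limma adjusted p = 0.150) was at levels around or below the array median, and KI replicate 97 was below the 40th percentile.

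All 4 calls were lost when every one of the 35556 probe sets was tested with no filter (limma adjusted p from 0.0920 for Mylk4 to 0.132 for Mylk2), and those of Myl3 (0.0532) and Mylk2 (0.0561) when all probe sets were tested with the filter. The log2 differences are the same in these versions, which adjust over more features and use another prior variance.

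**Figure D3:**
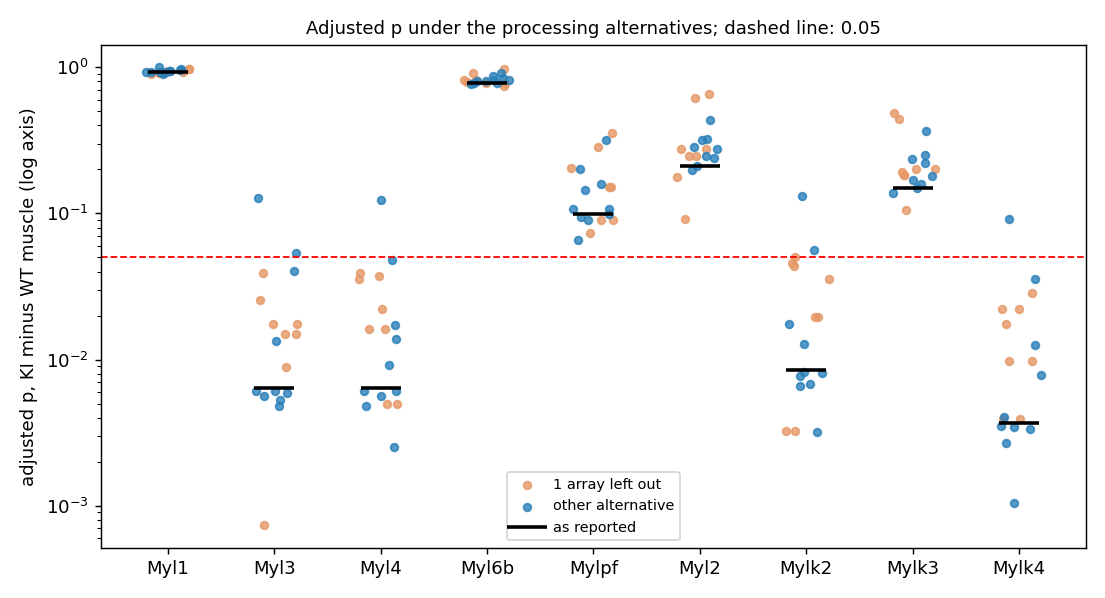
Adjusted p of the KI minus WT difference in muscle for each gene, on a log axis, as reported (black line), with 1 array left out (orange) and under the other processing alternatives (blue). Myl3, Myl4, Mylk2 and Mylk4 lie below 0.05 (dashed line) in most alternatives and the other 5 genes in none.

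The cerebellum served as background. Of the 9 genes, 5 reached the filter there (Myl1, Myl4, Myl6b, Mylk2 and Mylk3), and 0 were called between KI and WT, against 0.205% of 13641 genes tested (0.147% higher and 0.0586% lower). None of the 5 had an unadjusted p under 0.05 in limma, and the differences ran from -0.17 ± 0.18 (SE) for Mylk2 to 0.01 ± 0.13 for Mylk3. Mylk4 was at 4.06 and 3.88 in KI and at 3.58 and 4.07 in WT cerebellum, and Myl3 was at 4.61 and 4.78 in KI and at 4.88 and 5.15 in WT cerebellum.

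Between tissues, 6 of the 9 genes were called at least 2-fold higher in muscle, as were 11% of all genes, with 15% called lower and 26% in either direction. Of these 6, Mylk4, Mylpf and Myl3 passed the filter only through muscle, so their count supports nothing and no size is given for their difference. Their cerebellum levels lay from 3.58 to 4.07 for Mylk4, from 4.55 to 5.13 for Mylpf and from 4.61 to 5.15 for Myl3, with 0, 1 and 1 of 4 arrays at the 40th percentile. Myl1 reached that percentile on 2 of 4 cerebellum arrays, at 4.64 to 5.14, against 12.29 to 12.42 in muscle. Myl4, which passed on all 4 cerebellum arrays, was 2.52 ± 0.11 (SE) log2 units higher in muscle (limma adjusted p = 2.77e-08), and Mylk2, which passed on 3, was 5.13 ± 0.13 higher (limma adjusted p = 6.37e-10). Myl6b was 0.27 ± 0.07 higher, under the 2-fold limit, and Myl2 was below the 40th percentile on all 4 cerebellum arrays. Mylk3 did not differ detectably, at 0.00 ± 0.09 (SE; 95% interval -0.22 to 0.21; limma adjusted p = 0.974).

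Whether KI and WT differ more in muscle than in the cerebellum could be tested for the 5 genes that passed the filter in both tissues, as the muscle minus the cerebellum difference. None of the 5 was called in limma and 2 had an unadjusted p under 0.05 (13.8% of all genes did), where 0.143% of 14708 genes were called, 0.102% as higher and 0.0408% as lower. Myl4 (-1.13 ± 0.22, SE; limma adjusted p = 0.0979) and Mylk2 (-1.15 ± 0.26, 0.116) did not pass, so a difference between tissues is not shown for them. Myl3, Mylpf, Myl2 and Mylk4 entered the fit through muscle alone, and their cerebellum term is signal below or at the filter. The value of Mylk4, -1.58 ± 0.23 (SE; limma adjusted p = 0.0416), therefore sets its fall in muscle against background and does not show that the genotype effect differs between the tissues. It was called in the fit of all arrays and lost without any 1 of the 8 arrays (limma adjusted p from 0.0678 to 0.147).

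The profiles of the genes that fell were set beside those of all other genes tested in muscle, by the Euclidean distance over the 4 muscle arrays after centring on the WT mean. The nearest of 13932 genes to Myl3 was Mss51, a mitochondrial protein of skeletal muscle, at a distance of 0.26, with levels of 6.01 and 5.91 in KI and of 9.03 and 7.93 in WT muscle. It had the same split between the WT arrays, higher in replicate 95. The next, Dkk3, a secreted glycoprotein, and Nmrk2, a nicotinamide riboside kinase, were farther at 1.43 and 1.50. Myl4 was nearest to Agbl1 (0.07), a carboxypeptidase of the tubulin-modifying family, then to Mylk2 (0.14) and to the kinase Sgk1 (0.21). Mylk2 was nearest to Sgk1 (0.12), Myl4 (0.14) and the LIM-domain protein Fhl3 (0.16), and Mylk4 to Fhl3 (0.17), the actin-oxidising enzyme Mical2 (0.18) and Sgk1 (0.20). All of these neighbours were called lower in muscle, with log2 differences from -2.52 for Mss51 to -1.21 for Agbl1. That follows largely from choosing them by distance to genes that fell, so it is no separate result. The likeness is a description over 4 arrays.

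Of 11 fast fibre genes tested outside the set, 4 fell, where 0.89% of all genes were called lower, and 7 did not pass. All 11 had both KI arrays below both WT arrays (19.9% of all genes did), with a median log2 difference of -0.54. This list, too, was chosen with earlier results of these data known, so the shares are no test of it. The 4 were Casq1, the fast calsequestrin that stores calcium (-0.68 ± 0.12), Actn3, the fast actinin of the Z-disc (-0.60 ± 0.13), Pvalb, the calcium buffer parvalbumin (-0.59 ± 0.13), and Tnni2, fast troponin I (-0.55 ± 0.12, SE; limma adjusted p from 0.0199 to 0.0439). These 4 calls were lost without any 1 muscle array. Whether the kinases fell by more than these genes was not tested. The 95% interval of Mylk2 (-1.73 to -0.91) overlaps that of Casq1 (-0.95 to -0.41) but not those of Actn3, Pvalb and Tnni2. Among these 3 the lowest end is -0.89, for Actn3. The interval of Mylk4 (-1.80 to -1.08) overlaps none of the 4. The 5 muscle fibre markers had a median difference of -0.16, with 0 called in limma and 2 at an unadjusted p under 0.05 (20.3% of all genes). The fast list shares Myh1, Myh4 and Mybpc2 with the thick filament list, and the slow list shares Myh7 and Myh7b with it.

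Of 9 slow fibre genes outside the set, 1 rose and 0 fell, where 2.66% of all genes were called higher and 0.89% lower. Of the 9 differences, 5 were negative, as were 45.0% over all genes, and the median was -0.01. These counts are no result about the list as a whole. Casq2, the calsequestrin of slow and cardiac muscle, was at 9.12 and 9.42 in KI muscle and at 7.57 and 7.57 in WT muscle (1.70 ± 0.16, SE; limma adjusted p = 0.00158). Myh7, the slow heavy chain that carries Myl3 and Myl2, was at 5.56 and 5.90 in KI and at 6.48 and 5.81 in WT muscle (-0.41 ± 0.24, SE; limma adjusted p = 0.371). Myh7b, a slow-type heavy chain (-0.36 ± 0.11, adjusted p = 0.107), and Myoz2, a calcineurin-binding protein of the slow Z-disc (0.70 ± 0.28, adjusted p = 0.198), did not pass. The 4 probe sets of slow tropomyosin Tpm3 disagreed. The one used, the brightest over all 8 arrays, gave 0.07, and the others gave -0.63 (10493633), -0.10 and -0.06. In WT muscle 10493633 was the brighter, with a mean of 8.85 against 8.38 for the one used.

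Some slow fibre genes differed between arrays of the same genotype. Tnni1, slow troponin I, was at 6.43 in WT replicate 95 and 6.31 in KI replicate 97, against 5.71 in WT replicate 96 and 5.58 in KI replicate 94. Tnnc1, slow and cardiac troponin C, was at 6.39, 6.34, 5.78 and 5.77 on the same arrays. Myl3 and Myl2 were likewise higher in WT replicate 95 than in 96, but within KI Myl3 was lower in replicate 97 (5.90) than in 94 (6.11). The part of slow fibre content in the spread of Myl3 between the WT arrays was not tested.

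**Figure D4:**
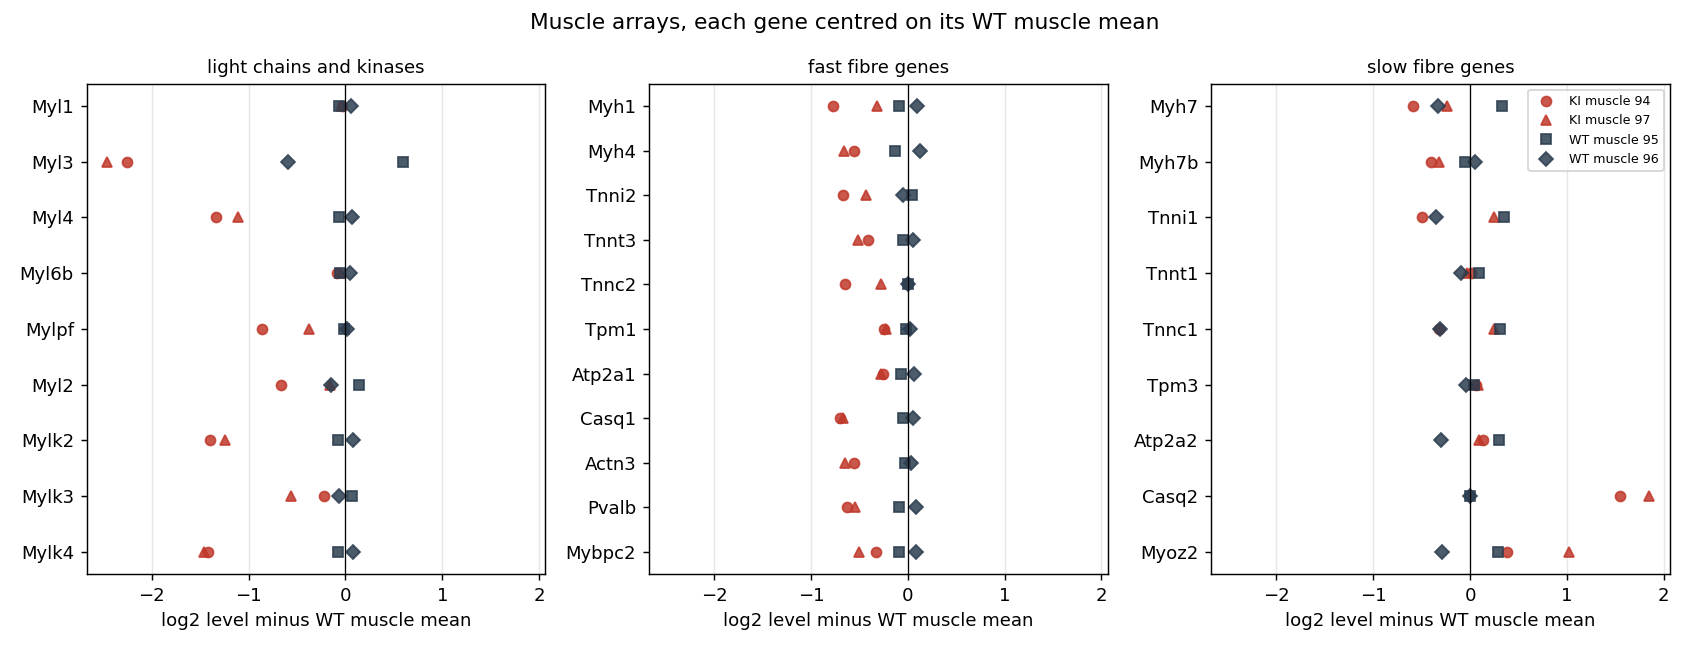
Log2 level on each muscle array minus the WT muscle mean of the gene, for the light chains and kinases, the fast fibre genes and the slow fibre genes. The fast fibre genes lie left of 0 on both KI arrays, and among slow fibre genes Casq2 lies to the right.

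Since Myl3, Myl4 and Mylk3 are also genes of the heart, heart markers are given beside them. The 5 markers Myh6, Nppa, Tnni3, Tnnt2 and Myl7 lay between 4.96 and 6.13 on the muscle arrays and averaged 5.42 and 5.47 in KI and 5.64 and 5.63 in WT muscle, with 0 of 5 called in limma and 2 at an unadjusted p under 0.05 (20.3% of all genes). Their cerebellum means were 5.01 to 5.10. Markers of embryonic and newly formed fibres averaged 5.89 and 5.90 in KI and 5.85 and 5.94 in WT muscle, with Myh3, the embryonic heavy chain, under 5.05 on every muscle array and 0 of the 3 tested called in limma, 2 having an unadjusted p under 0.05 (20.3% of all genes). These 2, Mymk and Mymx, went opposite ways, which the list means hide. Mymk was at 6.32 and 6.50 in KI and at 5.92 and 6.15 in WT muscle. Mymx was at 6.11 and 5.88 in KI and at 6.37 and 6.30 in WT muscle. The part of heart cells and of embryonic or newly formed fibres in the results was not tested.

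Among thick filament genes, heavy chains and their partners, 0 of 14 tested were called in limma while 7 had an unadjusted p under 0.05, as did 20.3% of all genes, and the median difference was -0.39. Mybph, myosin-binding protein H, was at -0.63 ± 0.15 (SE; limma adjusted p = 0.0542), and the fast heavy chains Myh4 and Myh1 were at -0.61 ± 0.21 (adjusted p = 0.152) and -0.54 ± 0.18 (0.136). Smyd1, a methyltransferase needed for thick filament assembly, was at 0.43 ± 0.12 (0.0918). Myh2, the heavy chain of fast oxidative fibres, was at 9.46 and 10.77 in KI against 10.51 and 10.63 in WT muscle, so its KI arrays lay on either side of WT.

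Of 5 other light chains tested, mostly of non-muscle and smooth muscle myosin, 1 rose and 0 fell. Myl12a, a cytoplasmic regulatory chain, rose from 8.66 and 8.60 in WT to 9.21 and 9.19 in KI muscle (0.57 ± 0.11, SE; limma adjusted p = 0.0266), where 2.66% of genes were called higher. Its call was lost without any 1 muscle array (0.0928 to 0.107). Myl12b, its near copy (0.21 ± 0.12, adjusted p = 0.384), and the smooth muscle chain Myl9 (0.16 ± 0.12, 0.496) did not pass, nor did the atrial regulatory chain Myl7 (-0.31 ± 0.14, 0.236). The near-identical sequences of Myl12a and Myl12b could share probes, which was not tested. Between tissues they went opposite ways, with a muscle minus cerebellum difference of 2.66 for Myl12a and -1.45 for Myl12b.

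Other genes that act on light chain phosphorylation showed 0 calls in 10 tested in limma, with 2 at an unadjusted p under 0.05 and a median of 0.01. That is near the 20.3% of all genes at this limit, so it is no result about the list. The 2 were subunits that target the phosphatase to myosin, Ppp1r12a (0.28 ± 0.10, SE; adjusted p = 0.182) and Ppp1r12b (0.23 ± 0.10, 0.244). The 7 probe sets of Ppp1r12b gave differences from 0.05 to 0.68. Rock1, a kinase of the phosphatase subunit, was at 0.23 ± 0.16 (0.463) and Ppp1r14a, a phosphatase inhibitor of smooth muscle, at -0.18 ± 0.13 (0.469). Mylk, the smooth muscle light chain kinase, was at 6.27 and 6.41 in KI and at 6.44 and 6.52 in WT muscle (-0.14 ± 0.12, adjusted p = 0.549), with both KI arrays below both WT arrays by a small margin.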

How the data were processed

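Total RNA was measured on the Mouse Gene 1.0 ST array of Affymetrix. What the authors deposited are log2 levels; the submitters' processing notes name GCOS and RMA, and the sources used here do not give their versions, the filters or the genome build. Of 35556 probe sets on 8 arrays, 21789 had 1 gene symbol in the platform annotation, 1621 several and 12146 none. For genes with several probe sets, the one brightest on average was taken.

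A model with a mean per group was fitted with limma 3.58.1 in R 4.3.3 to the 14708 genes that passed the filter in either tissue (4 residual and 5.30 prior degrees of freedom), with p adjusted over the genes of each comparison. The procedure was also run on simulated data drawn from the fitted model, with independent arrays. That run cannot tell how the procedure does if the real arrays are not independent. KI and WT share no replicate number, so they could not be paired. Same-numbered arrays of the 2 tissues deviated together with r of 0.06 (KI) and -0.10 (WT). With 2 arrays per group the deviations mirror each other, so r cannot show whether same-numbered arrays share an animal. Arrays were not paired in the main fit, and the replicate number was used as a block in an alternative. The alternatives varied the filter, the choice of probe set, the scaling, the variance estimate and the arrays used.

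All 9 genes, up to 4 genes with the smallest p in each of 5 lists, the 3 nearest profiles of each called gene and the cell type markers were named by rule. Myh4, Myh2, Mylk, Tpm3, Tnni1 and Tnnc1 were singled out after their values were seen. The members and lists were chosen with earlier results of these data known.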

Additional observations from a re-analysis of the deposited data

Results flagged for a closer look

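A pair of the genes named passed the limma test of the muscle minus the cerebellum difference between KI and WT. For Mylk4 it was -1.58 on the log2 scale (adjusted p = 0.0416), but all 4 cerebellum arrays, at 3.58 to 4.07, were below the 40th percentile. A genotype effect in the cerebellum could not be measured there, so the value restates the fall in muscle. For Casq2, a slow fibre gene, it was 2.12 (adjusted p = 0.0342), with KI higher by 1.70 in muscle and a cerebellum difference of -0.42 (adjusted p = 0.823). The Casq2 call was lost with all probe sets, with or without the filter, and without KI muscle replicate 97, KI cerebellum replicate 94 or either WT cerebellum array, settings in which 0 genes were called for this difference (1217 to 2968 at an unadjusted p under 0.05).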

How the results depend on the processing

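Of the 4 light chain and kinase genes called lower in muscle, Mylk4 and Myl4 were called in 17 of 18 alternatives, Myl3 in 16 and Mylk2 in 15. The other 5 were called in 0. None of the 4 changed sign. Leaving out 1 array could not change it, since both KI muscle arrays lay below both WT muscle arrays for these 4 genes. The number of these genes called was 0 with all probe sets and no filter, 2 with all probe sets and the filter (an alternative chosen after seeing the data), and 3 to 4 with 1 array left out. Over all genes, the limma count of 495 in muscle became 246 with no filter, 0 with all probe sets and no filter (4374 at an unadjusted p under 0.05), 69 with all probe sets and the filter, 155 with the muscle arrays alone, and 105 (without WT muscle replicate 95) to 385 with 1 array left out; it was at most 178 without any 1 muscle array and 264 without either WT cerebellum array. The count of 28 in the cerebellum became 18, 0 (1281 unadjusted) and 6 in the first 3 of these, and 4 to 29 with 1 array left out. The count of 21 for the difference between tissues became 3, 0 (2968 unadjusted) and 0 (2459 unadjusted), 63 with trended and robust variances, and 0 to 23 with 1 array left out (0 in 4 of these, with 1217 to 2116 unadjusted). The causes were not tested. With the replicate number as a block that count was 14 and the count between tissues 3823, the same as without it; Mylk4 was called for the difference in 6 of 17 alternatives. Low signal limits Myl2, Mylk3 and Myl6b, whose levels lay near the array medians.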

Other observations

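Marker lists of other cell types in muscle had 0 called genes in limma. Macrophage markers averaged 5.99 and 5.74 in KI and 5.62 and 5.68 in WT muscle (1 of 5 tested at an unadjusted p under 0.05, against 20.3% of all genes). They did not all go the same way: C1qb was at 6.99 and 6.49 against 5.87 and 6.47, and Cd14 at 4.35 and 4.56 against 4.66 and 4.97. Smooth muscle markers, Acta2 the brightest, averaged 6.67 and 6.72 in KI and 6.66 and 6.54 in WT muscle. Fibroblast markers averaged 9.03 and 8.49 against 8.72 and 8.74, and endothelial markers 7.63 and 8.07 against 7.80 and 8.01. Satellite cell markers averaged 6.02 and 6.18 against 6.10 and 5.92. The adipocyte means were 5.11 and 5.08 against 5.27 and 4.83, those of Schwann cells 6.08 and 5.78 against 5.84 and 6.06, and the red cell marker Alas2 was at 6.15 and 5.72 against 6.30 and 5.69. None of the other non-neuronal lists given here had a gene at an unadjusted p under 0.05. Markers of cerebellar neurons averaged 4.57 to 4.79 in muscle and 9.92 to 10.53 in the cerebellum.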
